A study of Mus musculus with 6 samples.

Results

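The genes described here encode the Par, Crumbs and Lgl polarity proteins: Pard3, Pard3b, Pard6a, Pard6b, Prkci and Prkcz of the Par complex, Crb3, Mpp5 (the gene for Pals1) and Patj of the Crumbs complex, and Llgl2 of the Lgl family. They were chosen by name as subunits of these complexes and make up 10 of the 52550 genes in the table. The RNA came from sorted GFP-positive cells of the livers of CD-1 mouse embryos that carry a Sox9-GFP transgene, in which green fluorescent protein reports the expression of the biliary transcription factor SOX9. Pooled livers gave 3 libraries (A, B and C) at each stage, E16.5 and E18.5, with no treatment or second genotype. The labels give the stages as embryonic days 16 and 18, and the study's methods give them as E16.5 and E18.5. Blood cells were first depleted on magnetic beads by their lineage antigens (Ter119 of erythroid cells, CD11b of myeloid cells, CD5 and CD45R of lymphocytes, among others), and the GFP sort then took every remaining cell with enough GFP, whatever its type.

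The inner wall of a bile duct is an epithelium whose cells, the cholangiocytes, have an apical side facing the lumen, a basal side facing the matrix, and tight junctions between them. The Par complex (PAR3, PAR6 and atypical protein kinase C) and the Crumbs complex (CRB3, PALS1 and PATJ) mark the apical side and the junction. Lgl proteins bind PAR6 and atypical protein kinase C, are phosphorylated by the kinase, and are thereby kept on the basal and lateral membrane. The comparison asks how the RNA of these subunits differed between an earlier and a later stage of bile duct development.

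At E18.5 the RNA of 7 of the 10 genes rose, that of 0 fell, and 3 did not pass the test, which was limma on log2(TPM + 1) with an adjusted p under 0.05 over 22452 genes (TPM, a transcript abundance, is scaled by gene length and library total). Among all genes tested, 26.0% were called higher and 5.22% lower at E18.5, and the median log2 fold change was 0.42 against 0.73 for the 10 genes. With a minimum mean of 5 TPM, 36.3% of genes were called higher. Tested over protein-coding genes alone, with TPM rescaled to them, 45.3% were called higher and the median was 0.49. The same 7 polarity genes were called in both. Llgl2 had the largest rise of the 10, followed by Pard6b and Patj, and these 3 were also the ones still called higher after median-of-ratios scaling had brought the median of all genes to 0.01. Under that scaling 6.44% of all genes were called higher. Pard3b, Pard6a and Mpp5 were not called. All 10 genes passed the filter of a mean of at least 1 TPM. In bulk samples, fewer cells of a type and less RNA per cell cannot be told apart, and the p-values measure only the spread between these pools.

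Recovered read totals ran from 23193537 to 26206374 in the E16.5 libraries and from 13093937 to 22643868 in those of E18.5, and the 10 genes had between 19 reads (Pard6a in E18.5 C) and 7521 reads (Patj in E18.5 A) per library. Cholangiocyte markers were present in all 6 libraries, with a summed level of 972 to 2927 TPM at E16.5 and 8721 to 14818 TPM at E18.5, and 9 of the 11 were called higher, Sox9, the gene behind the sort, among them. RNA of some other cell types moved with the stage as well, while among all genes 26.0% were called higher and 5.22% lower. Hepatoblast markers summed to 178060 to 225950 TPM at E16.5 and 41396 to 102320 TPM at E18.5, with 7 of 11 called lower, and megakaryocyte markers fell from 3342 to 9657 TPM to 96.6 to 771 TPM, with 9 of 9 called lower. Mesenchymal markers summed to 266 to 420 TPM at E16.5 and 552 to 977 TPM at E18.5, and 3 of 9 were called higher, near the share of all genes. Few markers of 3 other lists were called: 0 of 10 erythroid markers higher and 1 lower, 1 of 8 endothelial markers higher and 1 lower, and 1 of 8 leukocyte markers higher and 0 lower. Pancreatic acinar markers summed to 2434, 224 and 67.8 TPM in E16.5 A, B and C, where A stood far apart, and to 4.54 to 47.7 TPM at E18.5, with 3 of 6 called lower. The part of these cell types in the polarity genes' values was not tested. The library E16.5 C had the least cholangiocyte marker RNA, 972 TPM against 2378 in A and 2927 in B, and it was also the lowest library for 9 of the 10 genes, Pard3b being the exception, at E16.5.

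**Figure D1:**
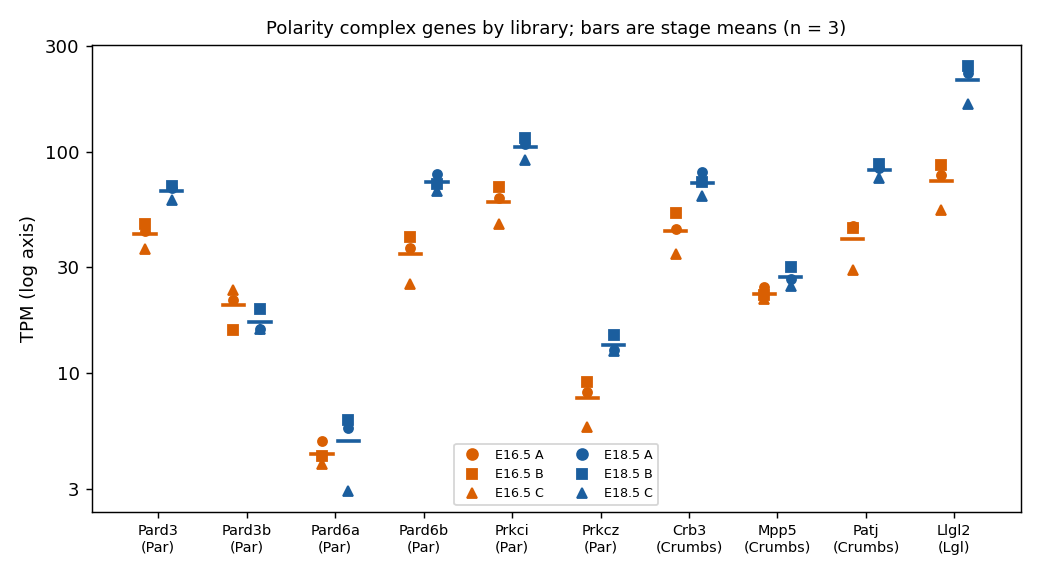
TPM of each polarity gene in every library, on a log axis, with E16.5 and E18.5 side by side; points are libraries and the bar is the mean of 3. For 8 of the 10 genes, against 45.0% of all genes tested, every E18.5 point lies above every E16.5 point, and for Pard6a and Pard3b the stages overlap.

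Within the Par complex, PAR6 is the adaptor that ties atypical protein kinase C to the small GTPase CDC42 and to CRB3 or PALS1. Pard6b (chromosome 2, 168081004 to 168101203, plus strand, GRCm38) measured 36.7, 41.3 and 25.2 TPM at E16.5 (libraries A, B and C, in this order throughout) against 79.2, 71.7 and 66.6 TPM later. The stages did not overlap, and the mean went from 34.4 ± 8.33 to 72.5 ± 6.33 TPM (SD, n = 3 each), a log2 fold change of 1.08 (SE 0.19, limma adjusted p = 0.0133). Its paralogue Pard6a (chromosome 8, 105701148 to 105703496, plus strand) was the lowest of the 10 genes, at 4.94, 4.21 and 3.88 TPM at E16.5 and 5.64, 6.18 and 2.96 TPM at E18.5. Library E18.5 C was below all E16.5 libraries and E18.5 A and B were above them, so the stages overlapped. The log2 fold change was 0.11 (SE 0.28, limma adjusted p = 0.784). The 19 Pard6a reads in E18.5 C put its 2.96 TPM within 1.78 to 4.62 TPM by the exact 95% interval, which covers counting error only.

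Prkci and Prkcz encode the 2 atypical protein kinase C isoforms, iota and zeta, the enzymatic subunit of the complex. Prkci (chromosome 3, 30995747 to 31052959, plus strand) measured 61.8, 68.9 and 47.0 TPM at E16.5 and 108, 115 and 91.8 TPM at E18.5. Prkcz (chromosome 4, 155260129 to 155361361, minus strand) measured 8.27, 9.09 and 5.73 TPM at E16.5 and 12.8, 14.8 and 12.6 TPM at E18.5. For both genes every E18.5 library exceeded every E16.5 library, as was the case for 45.0% of all genes tested. Prkci had a log2 fold change of 0.83 (SE 0.17) and Prkcz one of 0.74 (SE 0.20), with limma adjusted p of 0.0165 and 0.0338.

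PAR3 is the scaffold that recruits PAR6 and the kinase to tight junctions, and its paralogue PAR3B lacks the kinase binding of PAR3. Pard3 (chromosome 8, 127063893 to 127612286, plus strand) measured 43.8, 47.3 and 36.2 TPM at E16.5 and 68.3, 69.9 and 60.7 TPM at E18.5, with no overlap. Its log2 fold change was 0.64 (SE 0.14, limma adjusted p = 0.0183), the smallest of the 7 rises. Pard3b (chromosome 1, 61638824 to 62642284, plus strand) measured 21.3, 15.7 and 23.8 TPM at E16.5 and 15.9, 19.5 and 15.8 TPM at E18.5. It was the 1 gene of the 10 with a lower mean at E18.5, but its stages overlapped and the log2 fold change of -0.22 (SE 0.19, limma adjusted p = 0.377) did not pass the test. Of the exonic bases of Pard3b, 4.43% lie opposite the antisense gene Pard3bos1, and whether counting used the strand is not given in the sources used here.

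In the Crumbs complex, CRB3 is the small transmembrane protein whose cytoplasmic tail binds PALS1, and PALS1 links it to PATJ. Crb3 (chromosome 17, 57059105 to 57065918, plus strand) measured 44.7, 52.7 and 34.5 TPM at E16.5 and 80.7, 72.6 and 63.1 TPM at E18.5. All E18.5 libraries were higher, with a log2 fold change of 0.71 (SE 0.18, limma adjusted p = 0.0266). Mpp5 (chromosome 12, 78748907 to 78840714, plus strand) measured 24.5, 22.5 and 21.5 TPM at E16.5 and 26.7, 30.1 and 24.9 TPM at E18.5. Its stages did not overlap either, but the difference was small: means of 22.8 ± 1.5 and 27.2 ± 2.68 TPM (SD, n = 3 each) and a log2 fold change of 0.24 (SE 0.13, limma adjusted p = 0.184). Patj (chromosome 4, 98395785 to 98719603, plus strand), which encodes a scaffold with many PDZ domains, measured 46.3, 45.3 and 29.2 TPM at E16.5 and 84.0, 88.0 and 76.1 TPM at E18.5. It had the largest rise of these 3 genes, with a log2 fold change of 1.05 (SE 0.19, limma adjusted p = 0.0136).

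Llgl2, the Lgl gene expressed mainly in epithelia, lies on chromosome 11 (115824049 to 115855780, plus strand). It measured 78.6, 87.4 and 54.4 TPM at E16.5 and 225, 244 and 164 TPM at E18.5. The lowest E18.5 library was well above the highest E16.5 library. The mean went from 73.5 ± 17.1 to 211 ± 41.6 TPM (SD, n = 3 each), with a log2 fold change of 1.52 (SE 0.22, limma adjusted p = 0.00976). Llgl2 had the highest mean of the 10 genes at both stages and was above 92.8% of protein-coding genes at the earlier stage and 98.2% at the later.

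The order of levels, in TPM, differed between the stages. At E16.5 it ran Llgl2, Prkci, Crb3, Pard3, Patj and Pard6b, each overlapping the next across libraries, then Mpp5 and Pard3b, which also overlapped each other, then Prkcz and Pard6a, each clear of its neighbours. At E18.5 Llgl2 and Prkci each stood clear of the gene below, while Patj, Pard6b, Crb3 and Pard3 overlapped each with the next. Mpp5, Pard3b, Prkcz and Pard6a followed without overlap between neighbours. Patj and Pard6b thus passed Crb3 and Pard3 in mean level. At E18.5 every Patj library (76.1 to 88.0 TPM) lay above every Pard3 library (60.7 to 69.9 TPM). The libraries of Patj and Crb3, Pard6b and Crb3, and Pard6b and Pard3 overlapped.

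**Figure D2:**
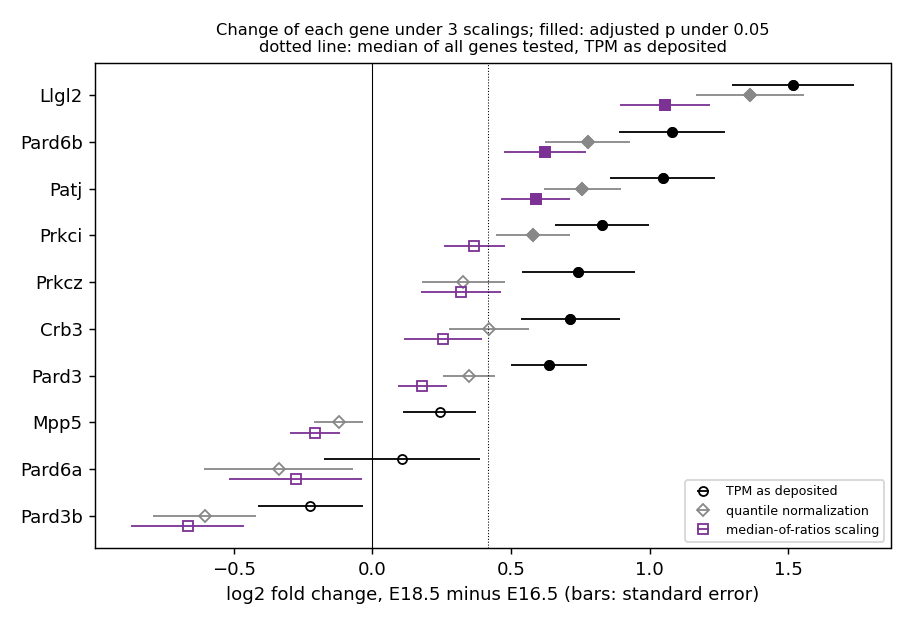
Log2 fold change (E18.5 minus E16.5, log2(TPM + 1)) of the 10 genes as deposited, after median-of-ratios scaling and after quantile normalization, with bars of 1 SE. Llgl2, Pard6b and Patj keep log2 fold changes of at least 0.59 on every scale, while Mpp5 and Pard6a change sign.

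Since most genes had higher TPM at E18.5, the scale decided how many of the polarity genes were called. Under median-of-ratios scaling Llgl2 had a log2 fold change of 1.05 (limma adjusted p = 0.0146), Pard6b 0.62 (adjusted p = 0.0369) and Patj 0.59 (adjusted p = 0.0286). Prkci at 0.37 (limma adjusted p = 0.0685), Prkcz at 0.32 (adjusted p = 0.176), Crb3 at 0.26 (adjusted p = 0.251) and Pard3 at 0.18 (adjusted p = 0.208) lost their calls. So 3 of 10 were called higher, against 6.44% of all genes. Mpp5 moved to -0.21, Pard6a to -0.28 and Pard3b to -0.67 (limma adjusted p = 0.0701), so that 3 of the 10 genes lay below the typical gene. Quantile normalization gave 4 calls, the same 3 genes and Prkci at 0.58 (limma adjusted p = 0.0329). Leaving out E18.5 A kept the call of Llgl2 alone (log2 fold change 1.46, limma adjusted p = 0.0435), with Pard6b and Patj both at an adjusted p of 0.053, and leaving out E18.5 B kept those of Llgl2, Pard6b and Patj. Leaving out E16.5 C, the library lowest in cholangiocyte markers, kept 5 calls and brought Crb3 to 0.55 (limma adjusted p = 0.0511) and Prkcz to 0.57 (adjusted p = 0.0615). The same 2 genes missed the threshold without E16.5 A, and Prkcz without E18.5 C (limma adjusted p = 0.0598).

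The promoters of 8 of the 10 genes were in the RefSeq promoter table (GRCm38.p6; windows from 250 bases before to 50 after a start). The E-box CAGGTG, the 6 letters bound by SNAIL and ZEB repressors that act on epithelial genes, was searched on both strands. It occurred in 8 of the 15 windows of these genes, against 20.2% of all 32851 RefSeq windows of that length, and in at least 1 window of 6 of the 8 genes, against 22.6% of the 27025 genes in the table. The 2 shares of genes are not alike, because the 8 genes have more windows per gene (15 for 8) than all genes (32851 for 27025). There were 4 matches for Crb3, the same 4 in each of its overlapping windows, which are therefore counted more than once among the 8 windows. There were 3 for Patj, 3 for Pard3 in its second window, 2 for Pard6b, 2 for Prkcz in its most upstream window and 1 in its most downstream, and 1 for Pard6a in its second window. Prkci and Pard3b had none. Of all windows, 2.88% held at least 2 matches, 0.365% at least 3 and 0.0548% at least 4. The Grainyhead motif AACCNGTT, present in 2.09% of all windows, occurred in none of the 8 genes. A match is a description of the letters and not a bound site. The stretch before the first annotated exon base of a window is given below, with capitals for the E-box on either strand. Pard6b (chr2:168080754-168081003, plus strand) had the largest rise among the 8. Of the 2 kinase genes, Prkcz (chr4:155361429-155361678, minus strand) has matches and Prkci (chr3:30995521-30995746, plus strand) has none. For Crb3 (chr17:57061951-57062140, plus strand) 1 of the 4 matches lies in the stretch. The Crb3 stretch lies inside the annotated gene, which begins at 57059105, and not upstream of it.
Pard6b: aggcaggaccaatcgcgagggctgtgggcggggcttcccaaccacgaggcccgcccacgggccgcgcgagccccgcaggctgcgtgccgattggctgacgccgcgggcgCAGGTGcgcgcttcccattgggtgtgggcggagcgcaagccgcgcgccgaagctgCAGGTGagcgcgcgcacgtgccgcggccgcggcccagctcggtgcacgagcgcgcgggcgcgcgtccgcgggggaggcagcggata
Prkcz: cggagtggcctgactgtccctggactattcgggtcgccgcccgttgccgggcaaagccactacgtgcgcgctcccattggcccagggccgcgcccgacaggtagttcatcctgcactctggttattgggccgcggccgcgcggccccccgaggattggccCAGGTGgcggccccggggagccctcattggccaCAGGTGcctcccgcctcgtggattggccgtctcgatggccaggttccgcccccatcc
Prkci: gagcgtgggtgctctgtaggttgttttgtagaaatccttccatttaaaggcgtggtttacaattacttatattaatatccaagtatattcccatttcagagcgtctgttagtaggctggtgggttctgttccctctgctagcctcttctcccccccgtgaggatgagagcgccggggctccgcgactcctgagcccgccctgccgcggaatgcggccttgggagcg
Crb3: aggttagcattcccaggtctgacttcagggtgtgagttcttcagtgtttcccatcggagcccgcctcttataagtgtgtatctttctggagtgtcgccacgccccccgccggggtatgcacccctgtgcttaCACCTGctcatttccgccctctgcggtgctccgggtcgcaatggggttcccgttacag

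Genes of one family can be compared within a library, where a shift common to both genes cancels in the ratio of their TPM. The overlaps and tests used the log2 ratio of TPM + 1, in which such a shift cancels only in part where a gene is low, as Pard6a and Prkcz are. The fold values printed below are ratios of TPM itself. Of 5 such pairs, 3 had ratios that did not overlap between the stages, as did 38.8% of all pairs of tested genes in either direction, and none passed a test: each had the smallest p that an exact two-sided permutation test of 3 against 3 libraries can give, 0.1 (0.167 after Benjamini-Hochberg adjustment over the 5 pairs). Pard3 was 2.05, 3.01 and 1.52 times the TPM of Pard3b at E16.5 and 4.30, 3.58 and 3.83 times at E18.5, so its share of the pair's TPM went from 67.6% ± 7.34 to 79.5% ± 1.5 (SD, n = 3 each). Pard6b was 7.44, 9.80 and 6.48 times Pard6a at E16.5 and 14.1, 11.6 and 22.5 times at E18.5, the last resting on the 19 Pard6a reads. With Pard6g included, the share of Pard6b in the PAR6 genes was 80.7% ± 1.19 and 84.8% ± 1.74 (SD, n = 3 each). Llgl2 was 2.29, 2.30 and 2.62 times Llgl1, its more widely expressed paralogue, at E16.5 and 3.55, 3.55 and 3.68 times at E18.5, a share of 70.6% ± 1.58 and 78.2% ± 0.363 (SD, n = 3 each). Both Lgl genes rose, Llgl1 from 31.0 ± 9.10 to 58.9 ± 12.7 TPM (SD, n = 3 each), with a log2 fold change of 0.92 (limma adjusted p = 0.0368). After median-of-ratios scaling Llgl1 was at 0.47 (limma adjusted p = 0.157).

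The kinase genes and the PATJ genes overlapped between the stages in their ratios. Prkci was 7.47, 7.58 and 8.19 times Prkcz at E16.5 and 8.49, 7.76 and 7.31 times at E18.5. The mean log2 ratio of TPM + 1 was 2.79 and 2.88 (exact permutation p = 0.3, 0.375 adjusted over the pairs). Its share of the 2 kinases was 88.6% ± 0.499 and 88.7% ± 0.748 (SD, n = 3 each). Patj was 2.31, 2.20 and 2.37 times Mpdz, the gene for its paralogue MUPP1, at E16.5 and 2.52, 2.12 and 2.15 times at E18.5, with a mean log2 ratio of 1.15 at both stages (exact permutation p = 1). In the Crumbs family Crb3 held 98.1% ± 0.729 of the summed TPM at E16.5 and 94.9% ± 0.631 at E18.5 (SD, n = 3 each), with no overlap. Crb2 went from 0.739 to 3.62 TPM in the mean (log2 fold change 1.42, limma adjusted p = 0.0133). It was picked out here after its values were seen, and it passed the filter of 1 TPM only through its E18.5 values. Crb1 was too low to be tested.

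**Figure D3:**
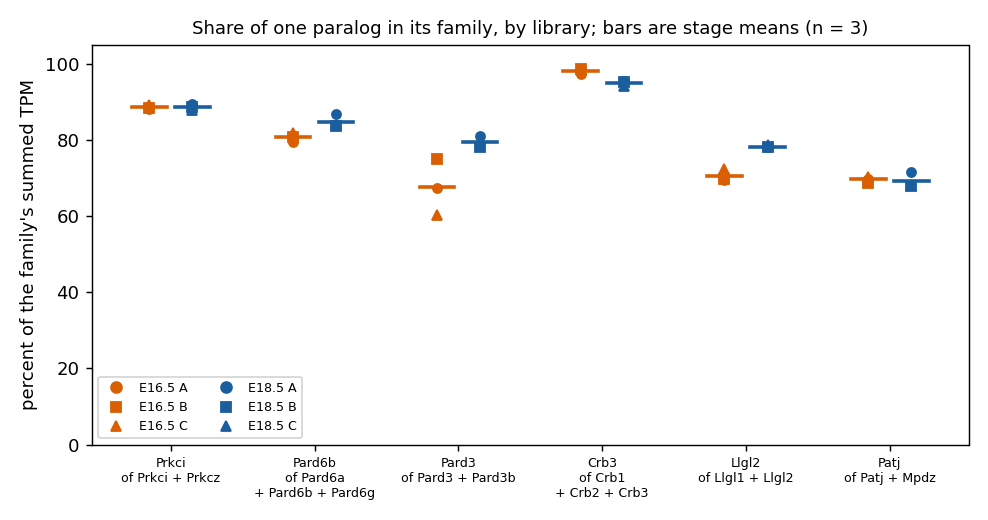
Share of each family's summed TPM held by the named gene, in percent, for every library at E16.5 and E18.5, with the mean as a bar. The shares of Pard3, Pard6b and Llgl2 are higher in every E18.5 library, that of Crb3 is lower, and those of Prkci and Patj overlap between the stages.

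The other genes of the 3 modules differed in how many were called. Of 11 tested partners and relatives of the Crumbs complex, 10 were higher at E18.5 and 0 were lower. Their median log2 fold change was 0.82, against 26.0% called higher and a median of 0.42 for all genes. Of the 14 genes listed for this group, Crb1, Lin7b and Mpp3 were too low to be tested. Crb2, among the 10, passed the filter of 1 TPM only through its E18.5 values, so the filter favoured its direction. Lin7a, for a PALS1-binding adaptor, was the gene not called, at 0.33 (limma adjusted p = 0.175). Wwc1, which encodes KIBRA, a partner of PATJ and of atypical protein kinase C that acts upstream of Hippo signalling, measured 86.0, 89.8 and 53.0 TPM at E16.5 and 207, 198 and 178 TPM at E18.5, with a log2 fold change of 1.37 (SE 0.21, limma adjusted p = 0.0104). Amotl1, for an angiomotin that binds PATJ, went from 39.4 ± 13.4 to 92.1 ± 9.11 TPM (SD, n = 3 each; log2 fold change 1.27, limma adjusted p = 0.0172). Mpdz went from 17.7 ± 4.60 to 36.8 ± 4.27 TPM (SD, n = 3 each; log2 fold change 1.04, limma adjusted p = 0.0165). After median-of-ratios scaling 5 of the 11, Crb2 among them, were called higher, against 6.44% of all genes. Lower calls were 0 of the 11, against 2348 of all 22452 genes tested. Wwc1 at 0.91, Amotl1 at 0.81 and Mpdz at 0.60 were all still called. Without E18.5 A or without E18.5 B, Amotl1 and Mpdz kept log2 fold changes of at least 0.96 but missed the threshold, with limma adjusted p of 0.0520 to 0.0568.

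Among 20 tested partners of the Par complex, 2 were higher, 0 were lower, and the median log2 fold change was 0.27, both below the 26.0% called higher and the median of 0.42 among all genes. The genes for the PAR-1 kinases, which act on the lateral membrane, were split: Mark1 at 0.86 (limma adjusted p = 0.0475) and Mark3 at 0.68 (adjusted p = 0.0161) were the called ones, and Mark2 at 0.39 (adjusted p = 0.0602) and Mark4 at 0.27 (adjusted p = 0.206) were not called. Cdc42, the GTPase that binds PAR6, was at 312 ± 10.8 and 366 ± 48.7 TPM (SD, n = 3 each; limma adjusted p = 0.209), and Pard6g was at 3.96 and 8.02 TPM in the mean (limma adjusted p = 0.0868). After median-of-ratios scaling 0 of the 20 were called higher, against 6.44% of all genes, and 4 lower, against 2348 of all 22452 genes tested.

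The Scribble module, the basolateral counterpart to which Lgl belongs, had 5 of 11 tested genes higher and 2 lower, against 26.0% and 5.22% of all genes, with a median of 0.28 against 0.42. Lrrc1, a SCRIB relative, went from 11.5 ± 2.91 to 30.1 ± 5.72 TPM (SD, n = 3 each; log2 fold change 1.33, limma adjusted p = 0.0125). Dlg5, a Discs large family scaffold, measured 34.9, 38.7 and 16.4 TPM at E16.5 and 69.1, 73.3 and 57.8 TPM at E18.5 (log2 fold change 1.21, limma adjusted p = 0.0281). Dlg2, another Discs large gene, known mainly as a synaptic scaffold, moved the other way: it measured 13.4, 8.33 and 22.3 TPM at E16.5 and 0.963, 2.83 and 1.53 TPM at E18.5, a log2 fold change of -2.45 (SE 0.40, limma adjusted p = 0.0112). Within each stage the libraries ranked the same way by Dlg2 as by the summed megakaryocyte markers, which were 5801, 3342 and 9657 TPM at E16.5 and 96.6, 771 and 226 TPM at E18.5, and the part of those cells in the Dlg2 value was not tested. Stxbp5, for tomosyn, a relative of Lgl, was the second gene that fell, with a log2 fold change of -0.77 (limma adjusted p = 0.0338). After median-of-ratios scaling the module had 2 genes higher and 3 lower, against 1447 and 2348 of all 22452 genes tested. Dlg5 at 0.75 (limma adjusted p = 0.0882) was then no longer called. Dlg5 also missed the threshold without E18.5 A (limma adjusted p = 0.0815) or E18.5 B (adjusted p = 0.0789), and Lrrc1 without E18.5 A (adjusted p = 0.0501). Over the 3 groups together, 19 genes were called, 12 without E16.5 A, 9 without E18.5 B and 4 without E18.5 A. Among all genes tested the calls were 7000, 4376, 2917 and 1472 in the same order.

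**Figure D4:**
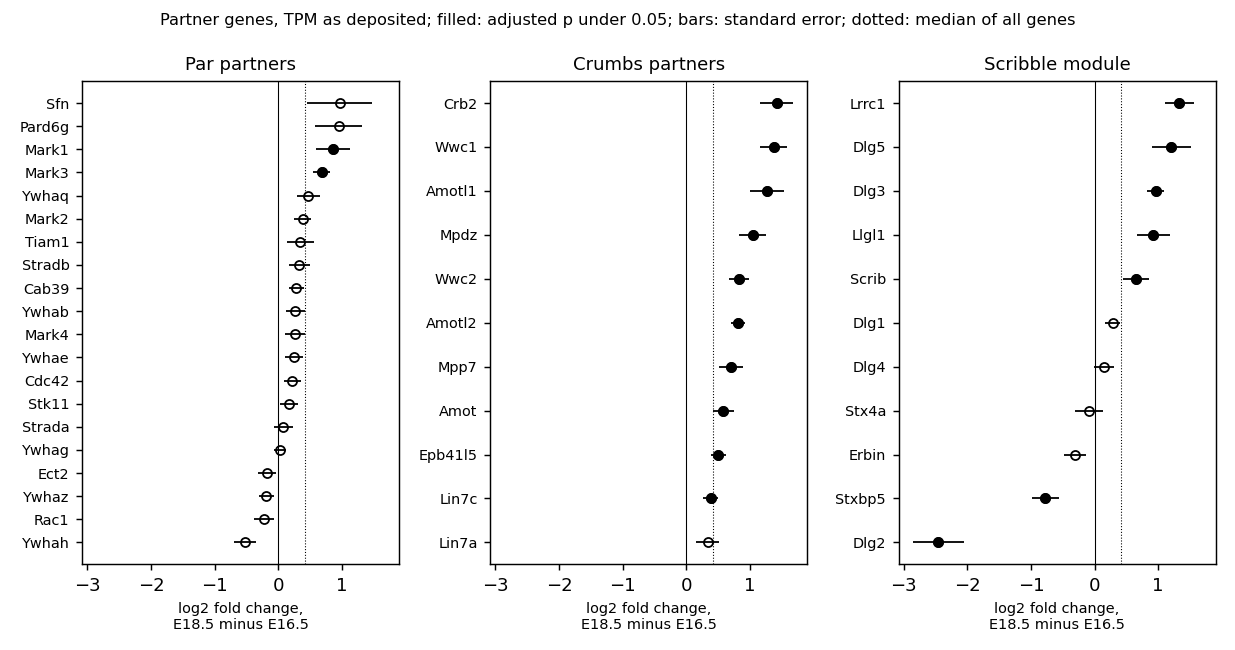
Log2 fold change (E18.5 minus E16.5, log2(TPM + 1)) of every tested partner gene, in 3 groups, with bars of 1 SE and filled points for called genes; a line marks the median of all genes, 0.42. The Crumbs group lies mostly to the right of the line, the Par group around or left of it, and Dlg2 stands far to the left.

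Set against the cholangiocyte markers of the same library, 9 of the 10 genes were lower in every E18.5 library, but so were 76.2% of all genes tested, in a comparison that was added once the values were known. For the 11 markers, which include Sox9, the basis of the sort, the mean log2(TPM + 1) was 6.20, 6.18 and 4.81 at E16.5 and 7.42, 7.39 and 7.31 at E18.5, a difference of 1.65. Relative to it the median of all genes differed by -1.23 on the log2 scale, Pard6b by -0.57, Patj by -0.60 and Pard3b, the most of the 10, by -1.87. Each of the 9 had the smallest exact permutation p of 0.1. Llgl2 overlapped between the stages, with a difference of -0.13 (exact permutation p = 0.8). Without E16.5 C the differences were -0.31 for Pard6b, -0.35 for Patj, -1.29 for Pard3b and 0.13 for Llgl2, against a median of -0.84 for all genes, and the same 9 genes, with 76.5% of all genes, were lower without overlap.

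**Figure D5:**
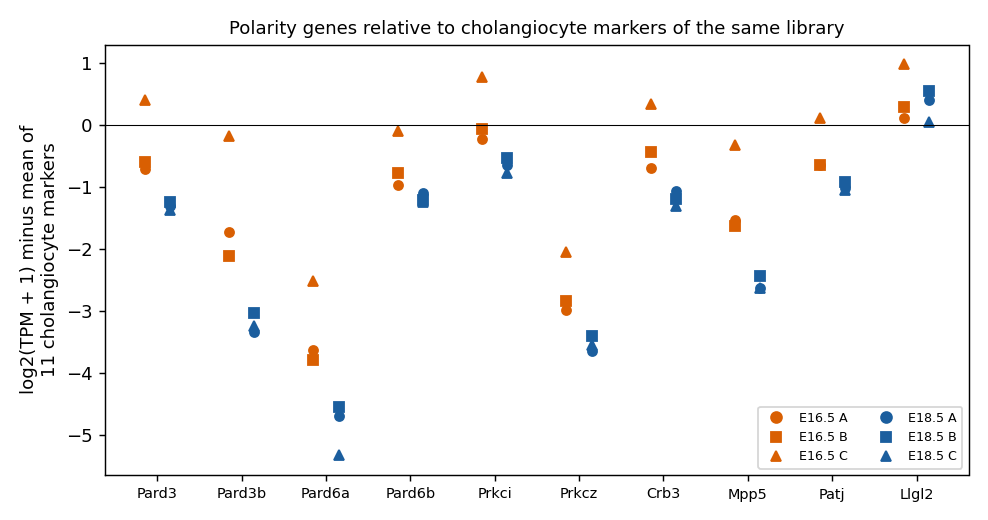
Log2(TPM + 1) of each polarity gene minus the mean log2(TPM + 1) of the 11 cholangiocyte markers, for every library at E16.5 and E18.5. Llgl2 overlaps between the stages, and the other 9 genes, like 76.2% of all genes, are lower in every E18.5 library.

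The profile of Llgl2 over the 6 libraries was compared with those of 13960 protein-coding genes, by the root mean square distance between log2 values centred on their mean. The 3 nearest were Rab11fip4 (distance 0.0507), an effector of the recycling endosome GTPase RAB11, at 32.5 and 88.6 TPM in the stage means, Pdcd4 (0.0520), an inhibitor of translation initiation, at 104 and 303 TPM, and Dtx3 (0.0628), a Deltex family gene, at 35.5 and 102 TPM. Their log2 fold changes were 1.43, 1.53 and 1.5. They were selected for their likeness to Llgl2, so these values carry no test.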

How the data were processed

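The authors trimmed the reads, aligned them to GRCm38 with HISAT2 2.1.0, counted them per gene with HTSeq 0.5.4p3, and deposited TPM for 52550 genes in 6 libraries of a stranded total RNA kit. Gene places and exon lengths were taken from GENCODE vM21. TPM multiplied by exon length, over what 1 read is worth in the library, gave back reads. They came out whole (within 0.01) for 100% of nonzero values of the 49035 genes with the same identifier version, and served for depth, intervals and alternatives. For the stage comparison, limma 3.58.1 (R 4.3.3, eBayes with a trend) was fitted on log2(TPM + 1), a scale that understates changes of low genes, to the 22452 genes whose mean reached 1 TPM, and p-values were adjusted by Benjamini-Hochberg. Values are given for called partners that changed by 1 or more on the log2 scale and reached 5 TPM in the higher stage, and for paralogues and direct partners of the members. Paralogue ratios, as log2 ratios of TPM + 1, were tested by exact permutation in Python 3.11.15 with SciPy 1.17.1. The members and lists were chosen with earlier results of these data known. The fit was run on simulated counts with planted changes around a shared profile. That run checks the code and cannot give the error rate in these libraries, whose cell types vary. Reads shared by paralogues could be lost in counting. The 19 alternatives covered pseudocount, filter, scaling, voom on recovered reads, the letters as a block and each library left out. No library was a copy of another. Promoter sequences are from RefSeq. The values of a marker gene are not reported here.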

Additional observations from a re-analysis of the deposited data

How the results depend on the processing

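Llgl2 was called higher under all 19 alternatives, with log2 fold changes of 1.05 to 1.69, Pard6b and Patj under 18 each, Prkci under 16, Pard3 under 14, Crb3 under 12 and Prkcz under 10. With no filter on low values, calls fell to 4282 genes from 7000 and to 11 partner genes from 19. Median-of-ratios scaling gave 3795 genes and 3 of the 10 polarity genes, quantile normalization 3796 and 4, and voom with median-of-ratios factors 4173 genes. The share of calls that were higher at E18.5 was 83.3% as deposited, 38.1% under median-of-ratios scaling and 50.5% under quantile normalization. With each library left out in turn, 1472 to 5686 genes, 1 to 7 polarity genes and 4 to 16 partner genes were called, the fewest without E18.5 A.

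Under median-of-ratios scaling, quantile normalization and voom with median-of-ratios factors, Pard6a turned to -0.28, -0.34 and -0.28, Mpp5 to -0.21, -0.12 and -0.20, and Zeb1 to -0.32, -0.29 and -0.38. Snai2 turned to -0.12 and -0.18 under the first and second. With each library left out, Pard6a ran from -0.056 (without E18.5 B) to 0.37 (without E18.5 C), and Zeb1 from -0.038 (without E18.5 C) to 0.26 (without E18.5 A). Zeb1 was at -0.055 in voom with library totals. The log2 ratio of Patj to Mpdz, 0.0015 apart between stages, turned to -0.021 with a pseudocount of 0.1, -0.024 without E16.5 B and -0.023 on recovered reads, and ran from -0.077 (without E18.5 A) to 0.045 (without E18.5 B) with libraries left out. Voom with median-of-ratios factors called Pard3b lower, at -0.69 (limma adjusted p = 0.0454). Relative to the cholangiocyte markers, Llgl2 turned from -0.13 to 0.13 without E16.5 C, an alternative chosen after seeing the data. The cause of these turns was not tested. A minimum mean of 5 TPM left Pard6a untested.

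The labels do not say that the letters A, B and C pair the libraries. Deviations of same-lettered libraries correlated at -0.042, 0.081 and 0.140, and those of differently lettered libraries at -0.146 to 0.084. With the replicate block 7314 genes were called and the same 7 polarity genes. The 3 libraries per stage cannot bring an exact permutation p below 0.1, and Pard6a rests on 19 to 67 reads per library.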

Other observations

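The genes for the repressors that bind the E-box were measured in the same libraries, and were picked after the polarity genes' values had been seen. Zeb2 was at 28.2, 16.9 and 38.6 TPM at E16.5 and 6.76, 16.8 and 14.5 TPM at E18.5. Its stages did not overlap, but the log2 fold change of -1.09 (SE 0.39, limma adjusted p = 0.0706) did not pass the test. It passed without E16.5 B (limma adjusted p = 0.0473), in voom with library totals (adjusted p = 0.0345) and in voom with median-of-ratios factors (adjusted p = 0.0323), and over the 19 alternatives the adjusted p ran from 0.0323 to 0.194. Within each stage Zeb2 ranked the libraries as the summed megakaryocyte markers did, and the part of those cells was not tested. Zeb1 was at 11 and 12 TPM in the stage means (limma adjusted p = 0.692) and Snai2 at 3.14 and 3.90 TPM (limma adjusted p = 0.436). Snai1 was below the filter, at 0.438 and 0.785 TPM.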
